A study of Mus musculus with 18 samples.

Results

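Polysome-bound RNA was compared with total RNA in unsorted mouse bone marrow, by RNA sequencing of 3 polysomal libraries (BM_P, replicates 1 to 3) and 3 total libraries (BM_T, replicates 1 to 3). These 6 of the 18 libraries of the study were chosen by their labels as bone marrow, and no measured value entered the choice. The marrow was flushed from the femurs of 3 C57BL/6 mice, all groups being WT and of that strain, with no drug treatment in the labels, and red cells were lysed before extraction. Cytoplasmic extracts, made in a lysis buffer with cycloheximide, which holds ribosomes on mRNA, were spread on a sucrose gradient for BM_P, while BM_T is RNA without that separation. The other 12 libraries hold polysomal and total RNA of 2 populations of myeloid-derived suppressor cells, sorted as LY6C and LY6G cells from marrow cultures with 5 days of differentiation. They serve here only to show where marrow differs, and in that comparison culture and cell type cannot be told apart. The age of the mice is not given in the labels, and nothing beyond the replicate numbers says whether each library came from its own animal, so p-values measure the spread between these libraries, which may be technical.

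An mRNA that is being read by several ribosomes at once sinks deep in a sucrose gradient, and the polysomal fraction therefore holds mRNA under translation in the cytosol. RNAs that work without being translated, such as the RNA of the signal recognition particle, the small nuclear RNAs of the spliceosome and the guide RNAs of nucleoli and Cajal bodies, form other particles. Mitochondrial mRNA is made and read inside mitochondria, on ribosomes of their own. Bone marrow is rich in maturing neutrophils, which fill successive granule types with enzymes and antimicrobial proteins, beside red cell precursors, B cell precursors, megakaryocytes and stroma.

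Ribosomal RNA took most of the counts in both fractions, and coding RNA was the smaller part by far in BM_T. The libraries were made after ribosomal RNA depletion, and how far it went in each library was not tested. Shares of all counts therefore cannot tell depletion from the make-up of the RNA. In the sorted libraries, coding genes held 37.3% to 94.6% of all counts. Nuclear protein-coding genes held 3.35%, 1.82% and 3.71% of all counts in BM_P replicates 1 to 3, against 0.278%, 0.291% and 0.232% in BM_T replicates 1 to 3. Every polysomal library lay above every total library, and the mean share was 11.1-fold higher in BM_P (exact two-sided permutation p = 0.1, the smallest that 3 against 3 allows). In reads, that left 274914 to 598151 coding counts in BM_P and 54944 to 76341 in BM_T, of totals of 12107504 to 17846803 and 19776431 to 26225431. The share of mitochondrial ribosomal RNA was 35.4% ± 7.15 in BM_P and 61.3% ± 4.36 in BM_T (mean ± SD, n = 3 each). That of nuclear loci resembling ribosomal RNA was 59.9% ± 7.52 in BM_P and 37.4% ± 4.13 in BM_T (exact permutation p = 0.1 for each class). After all libraries were thinned to 54944 coding counts, 7715 ± 50.6 coding genes had a count in BM_P and 6716 ± 292 in BM_T (exact permutation p = 0.1). With at least 3 counts needed, they were 4392 ± 53.5 in BM_P and 4231 ± 131 in BM_T, which overlapped (exact permutation p = 0.2). Levels below are therefore CPM scaled to nuclear protein-coding counts alone, called coding CPM, and a higher or lower level means relative to coding RNA of the same library. One count is worth 39.3 to 54.6 coding CPM in a BM_T library and 5.02 to 10.9 in a BM_P library, so low genes are far less precise in BM_T, and intervals and floors cover counting error only.

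BM_T replicate 1 stood nearer to the polysomal libraries than the other total libraries did. Its correlation with them, across genes on a log scale, was 0.70 to 0.75, against 0.53 to 0.66 for BM_T replicates 2 and 3. Marrow cell types were present in both fractions. Summed markers of red cell precursors reached 9228 to 12739 coding CPM in BM_P and 9618 to 9846 in BM_T, and those of stroma and bone 13186 to 41304 in BM_P and 25062 to 56025 in BM_T. None of 14 T cell and NK cell markers had enough counts to be tested. In such bulk samples, fewer cells of a type and less RNA per cell cannot be told apart.

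Of 3938 genes with enough counts, 132 (3.35%) were called between BM_P and BM_T (edgeR quasi-likelihood test, Benjamini-Hochberg adjusted p under 0.05). Of these, 29 (0.736%) were higher in BM_P, all of them nuclear coding genes, and 103 (2.62%) were lower. The genes that fell were 55 nuclear coding genes (1.44% of the coding genes tested, against 0.758% that rose), 7 mitochondrial mRNAs, 40 noncoding RNAs and 1 mitochondrial tRNA. The median log2 difference over all genes tested was 0.08, with quartiles of -0.41 and 0.60. Scaling to the sum of coding counts places this centre near 0, so the median does not measure how alike the fractions were. Without regard to the test, 507 genes (12.9%) had all BM_P libraries above all BM_T libraries and 393 (9.98%) had all below. Rises rested more on single libraries than falls did: without BM_P replicate 1, 4 rises and 70 falls were called, and without BM_T replicate 1, 90 and 140. The split also moved with the scaling. All counts outside ribosomal RNA as library size gave 2665 rises and 58 falls and shifted the median of all genes by 1.51, and the same size without annotated miRNA loci gave 80 and 93 with a shift of 0.21.

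**Figure D1:**
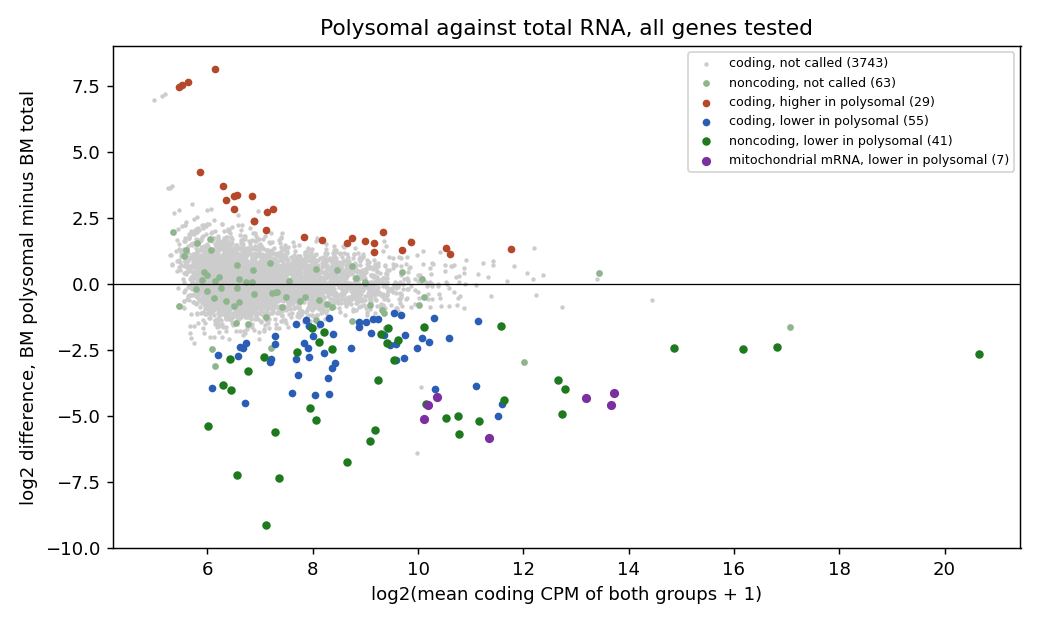
Log2 difference of each of the 3938 genes tested, BM polysomal minus BM total (y axis), against the log2 of the mean coding CPM of both groups plus 1 (x axis). Mitochondrial mRNAs and most called noncoding RNAs lie far below 0, called coding genes lie on both sides, and points above 7 are genes without a count in BM_T, whose fitted value is no measured fold.

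Mitochondrial mRNA lay far below coding RNA in polysomes. Of the 13 mitochondrial mRNAs, 8 had any count in BM_P and 9 in BM_T. Those without a count add nothing to the sums and shares of this class, for a reason that was not tested. The count filter was passed by 7 and all 7 fell in BM_P (against 2.62% of all genes), with a median log2 difference of -4.60, beside 0.08 over all genes tested. mt-Nd5, which encodes a subunit of respiratory complex I, had 719, 1164 and 1212 coding CPM in BM_P and 19747, 32813 and 22259 in BM_T. The lowest total library exceeded the highest polysomal library by far, and the log2 difference was -4.60 ± 0.41 (SE, adjusted p = 5.42e-07, edgeR). mt-Nd1, another complex I subunit, had 88.6, 109 and 75.8 coding CPM in BM_P and 3494, 7283 and 4620.1 in BM_T, the largest fall of the class at -5.82 ± 0.38 (adjusted p = 4.18e-08). mt-Co1, a catalytic subunit of cytochrome oxidase, stood at 684, 1099 and 858 coding CPM in BM_P and at 12886, 25294 and 15028 in BM_T (-4.34 ± 0.40, adjusted p = 7.53e-07). mt-Nd2, mt-Nd4, mt-Nd6 and mt-Cytb fell too, with log2 differences of -5.10, -4.60, -4.14 and -4.28, and in each the groups did not overlap. mt-Nd6 is the one mRNA encoded on the opposite strand of the mitochondrial genome and overlaps mt-Nd5 at its end, and the sources used here do not give whether strand was used in counting. As a share of all counts, mitochondrial mRNA was 0.0106% ± 0.0029 in BM_P and 0.0217% ± 0.0086 in BM_T, a smaller difference than against coding RNA (0.489-fold, exact permutation p = 0.1). All 7 were called without any 1 library. By contrast, 27 nuclear genes of oxidative phosphorylation had a median of 0.40 (0.21 to 0.61 when libraries were left out). Of these, 1 was called higher and none lower, against 0.736% and 2.62% of all genes, and the called gene was Cox6b1, a subunit of cytochrome oxidase. Cox6b1 had 197, 204 and 185 coding CPM in BM_P and 54.6, 26.2 and 34.4 in BM_T (2.37 ± 0.57, adjusted p = 0.0204), on 2 or 3 counts a total library, and of the fits without 1 library that without BM_T replicate 1 alone kept the call.

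**Figure D2:**
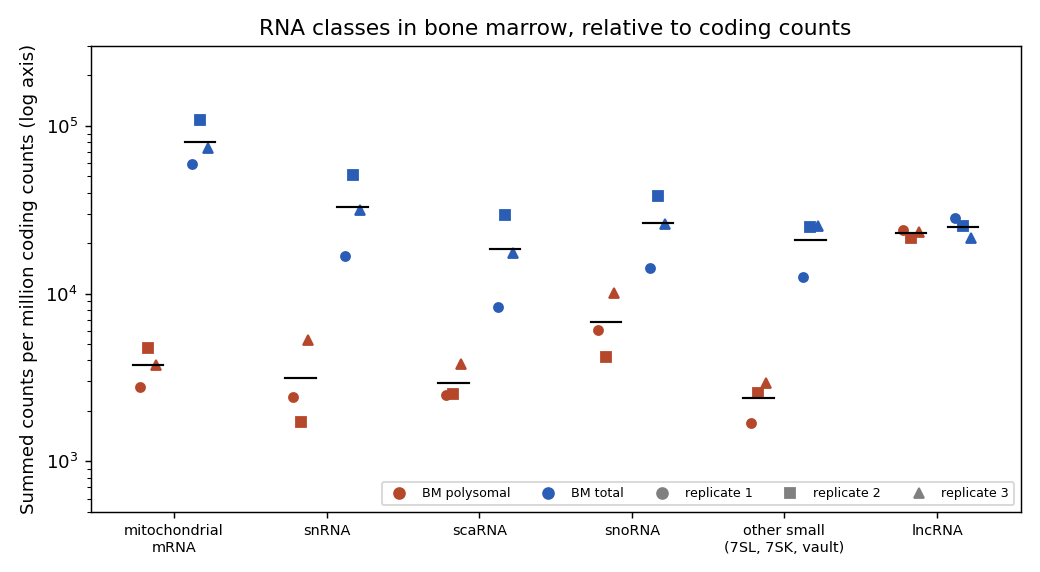
Summed level of 6 RNA classes in each bone marrow library, in coding CPM on a log axis, with BM polysomal left of BM total in each pair, symbols for replicates and bars for group means. Mitochondrial mRNA lies between 2765 and 4740 in BM polysomal libraries and between 59133 and 108461 in BM total libraries, while long noncoding RNA overlaps. Of the 13 mitochondrial mRNAs, 8 had any count in BM polysomal and 9 in BM total libraries.

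Structural and guide RNAs formed the other large group of falls, and 4 of the RNAs behind these results are shown as GENCODE M21 transcripts on build GRCm38, 5′ to 3′ and in DNA letters. Rnu11 (ENSMUSG00000077323, chr4:132270080-132270213, minus strand) encodes the U11 RNA of the minor spliceosome. Capitals in Rnu11 mark AATTTTTTG, a uridine-rich run of the kind that Sm proteins bind.
Rnu11: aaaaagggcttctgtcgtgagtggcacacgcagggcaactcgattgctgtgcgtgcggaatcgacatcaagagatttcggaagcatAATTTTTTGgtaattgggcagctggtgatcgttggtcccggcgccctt
Scarna8 (ENSMUSG00000088958, chr4:86586453-86586583, minus strand) and Gm25492 (ENSMUSG00000088008, chr5:135053988-135054116, minus strand) are annotated as RNAs of Cajal bodies, and Gm25776 (ENSMUSG00000080365, chr12:91573430-91573572, minus strand) as a nucleolar RNA. In these 3, capitals mark the ACA that stands before the last 3 bases, the mark of the H/ACA family, which guides pseudouridine formation.
Scarna8: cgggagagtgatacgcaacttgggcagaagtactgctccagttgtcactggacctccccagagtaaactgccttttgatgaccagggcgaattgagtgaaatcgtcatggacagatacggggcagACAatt
Gm25492: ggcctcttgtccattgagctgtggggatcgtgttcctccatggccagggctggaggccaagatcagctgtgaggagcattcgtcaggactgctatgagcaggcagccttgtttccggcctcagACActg
Gm25776: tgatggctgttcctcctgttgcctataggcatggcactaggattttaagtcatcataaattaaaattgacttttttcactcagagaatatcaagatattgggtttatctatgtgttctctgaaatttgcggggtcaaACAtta

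Both letter runs were common among the RNAs that fell. The ACA stood before the last 3 bases in 9 of the 12 nucleolar and Cajal body RNAs that fell, in 10 of the 19 others tested and in 301 of 1558 annotated transcripts of these classes (19.3%). AATTTTTTG, read on the RNA strand, occurred in 5 of the 8 small nuclear RNAs that fell, in 0 of 5 others tested and in 15 of 1383 annotated ones (1.08%, or 1.30% on either strand). Both were chosen after these results were seen and are descriptions, since annotated transcripts include many without a count here. The 8 small nuclear RNAs are not independent cases. Among them, Gm25099, Gm23143, Gm23287 and Gm22265 are 91.4% to 94.9% identical to the U5 gene Rnu5g. Gm25939 and Gm25360 are 98.4% and 97.9% identical to the U2 gene Rnu2-10.

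The 7SL genes, whose RNA is the scaffold of the signal recognition particle, fell together in BM_P. Rn7s2 (ENSMUSG00000099250) had 109, 109 and 145 coding CPM in BM_P and 1875, 6785 and 4620.1 in BM_T. The polysomal libraries lay close together and far below every total library, with a log2 difference of -5.19 ± 0.43 (adjusted p = 3.68e-07). Rn7s1 fell by 5.69 on the log2 scale (adjusted p = 0.0049), but its transcript is identical to that of Rn7s2 over all 300 bases, so reads cannot be assigned to either copy and their split is uncertain. Rn7s6, 85.1% identical to Rn7s2, had 125, 131 and 60.2 coding CPM in BM_P and 1729, 5240 and 3160.2 in BM_T (-5.01 ± 0.43, adjusted p = 4.24e-07). Among other structural RNAs, Vaultrc5, an RNA of the vault particle, had 933, 1844 and 1783 coding CPM in BM_P and 5060, 2554 and 6028 in BM_T, a smaller log2 difference of -1.58 (adjusted p = 0.0138). Terc, the template RNA of telomerase, fell by 2.85 (adjusted p = 0.0144), on 5 to 14 counts in each BM_P library and 6 to 18 in each BM_T library. Rn7sk, which holds back the elongation factor P-TEFb in the nucleus, had 321, 215 and 704 coding CPM in BM_P and 1347, 524 and 807 in BM_T. These groups overlapped (-1.09 ± 0.41, adjusted p = 0.176). Rmrp, the RNA of an endonuclease of nucleoli and mitochondria, was listed at 0 counts in all 6 libraries, and the reason was not tested. Over the fixed list of structural RNAs, 4 of 5 tested fell (against 2.62% of all genes) and none rose, with a median of -2.85, and leaving out each library in turn called 2 to 4.

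Small nuclear RNAs fell in 8 of the 13 cases tested (against 2.62% of all genes), with a median of -3.12 and all 13 below 0. Rnu11 had 26.7, 18.2 and 26.7 coding CPM in BM_P and 291, 1821 and 1288 in BM_T (-5.52 ± 0.53, adjusted p = 1.00e-06). The polysomal values were alike, while the total libraries spread over several fold with replicate 1 lowest. Gm25099 (ENSMUSG00000095676), 93.2% identical over their alignment to Rnu5g, a U5 gene, had 269, 240.1 and 349.9 coding CPM in BM_P and 3258, 9929 and 4964 in BM_T (-4.40 ± 0.41, adjusted p = 8.23e-07). Gm23143, Gm23287 and Gm22265, which are 91.4%, 94.9% and 91.5% identical to Rnu5g, fell too, and reads may be split among these copies. Gm25939 and Gm25360, 98.4% and 97.9% identical to the U2 gene Rnu2-10, fell less, with log2 differences of -1.68 and -2.21. Gm22513, 99.4% identical to the U1 gene Rnu1a1, had 697, 302 and 1841 coding CPM in BM_P and 2694, 11829 and 7420 in BM_T, and its log2 difference of -2.95 did not pass the threshold (adjusted p = 0.0795). Rnu12, the U12 RNA of the minor spliceosome, was at -1.27 (adjusted p = 0.354).

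Guide RNAs were split. Cajal body RNAs fell in 5 of 9 cases (median -2.11) and nucleolar RNAs in 7 of 22 (median -0.84), with none higher, against 2.62% of all genes tested that fell. Scarna8 had 3.34, 10.9 and 8.91 coding CPM in BM_P, on 2 to 4 counts a library, and 273, 1258 and 842 in BM_T, the largest fall among named genes (-6.75 ± 0.58, adjusted p = 4.12e-07). Gm25776 had 465, 495 and 325 coding CPM in BM_P and 5733, 23002 and 10734 in BM_T (-4.94 ± 0.48, adjusted p = 1.22e-06). Snora31 and Snora73b fell, with log2 differences of -2.45 and -2.25. Scarna2 had 909, 1142 and 1415 coding CPM in BM_P and 728, 1022 and 1288 in BM_T, where the groups overlapped (0.19, adjusted p = 0.805).

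These falls are relative to coding RNA. Scaled instead to all counts outside ribosomal RNA, 6 small nuclear RNAs, 4 Cajal body RNAs and 4 nucleolar RNAs fell. In that scaling 1 Cajal body RNA and 4 nucleolar RNAs rose, and the nucleolar median turned to 0.70. Annotated miRNA loci made up 73.5% ± 5.09 of the counts outside ribosomal RNA in BM_T and 35.0% ± 9.89 in BM_P. With these loci also left out of the library size, 5 Cajal body RNAs fell and 0 rose, with a median of -1.89. As a share of all counts, small nuclear RNA was 0.0102% ± 0.0084 in BM_P and 0.0089% ± 0.0052 in BM_T (exact permutation p = 0.8), and nucleolar RNA 0.0218% ± 0.015 and 0.0071% ± 0.0037 (exact permutation p = 0.2). The count of falls moved with single libraries: leaving out each in turn called 6 to 11 of the 13 small nuclear RNAs, 5 or 6 of the 9 Cajal body RNAs and 5 to 8 of the 22 nucleolar RNAs.

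Long noncoding RNA as a class overlapped between the fractions. It summed to 22941 ± 1316 coding CPM in BM_P and 25023 ± 3358 in BM_T. Of 29 tested, 6 fell (against 2.62% of all genes), all gene models without a name, and none rose. Malat1, a long noncoding RNA of nuclear speckles, had 14535, 11469 and 11947 coding CPM in BM_P and 11903, 8790 and 8038 in BM_T. The groups overlapped (0.40 ± 0.33, adjusted p = 0.593). Loci annotated as miRNA fell in 7 of 11 cases (against 2.62% of all genes), but 80.4% of the counts of that class lay in Mir6236 alone. Counts at these loci do not measure mature miRNAs, for which the libraries were not made. As a share of all counts, these loci held 1.57% ± 0.063 in BM_P and 0.918% ± 0.229 in BM_T, so their falls are relative to coding RNA.

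Genes of neutrophil maturation lay above the coding average in polysomes. Of the 27 on the list, 19 were tested, all 19 had a positive log2 difference, 5 rose (against 0.736% of all genes) and none fell, with a median of 0.93 beside 0.08 over all genes tested. Their summed level was 19522, 14812 and 14303 coding CPM in BM_P and 8299, 7453 and 7660 in BM_T, without overlap. S100a9, a subunit of the calcium-binding protein calprotectin, had 6574, 4434 and 3851 coding CPM in BM_P and 2311, 1886 and 1735 in BM_T (1.33 ± 0.30, adjusted p = 0.0157). S100a8, its partner, had 1011, 709 and 854 in BM_P and 273, 445 and 155 in BM_T (1.53 ± 0.34, adjusted p = 0.0138). BM_P replicate 1 was highest for both, and every polysomal library lay above every total library. Camp, which encodes the antimicrobial cathelicidin of secondary granules, stood at 1652, 1371 and 1161 coding CPM in BM_P and at 619, 485 and 309 in BM_T (1.57 ± 0.31, adjusted p = 0.00423). Anxa1, a phospholipid-binding protein that restrains inflammation, had 2717, 2048 and 1618 in BM_P and 983, 812 and 704 in BM_T (1.35 ± 0.29, adjusted p = 0.0107). Ngp, another granule protein, had 2715, 1655 and 2026 coding CPM in BM_P and 1001, 1022 and 876 in BM_T (1.14 ± 0.28, adjusted p = 0.0285). Ltf, the lactoferrin of secondary granules, differed less, at 1590, 2012 and 1912 in BM_P and 1383, 1140 and 2113 in BM_T, where the groups overlapped (0.25 ± 0.29, adjusted p = 0.722). The 5 rises became 1 without BM_P replicate 1 or BM_T replicate 3, 2 without BM_P replicate 2, 3 without BM_T replicate 2 and 0 in a fit that took its spread from all 18 libraries, while the median stayed between 0.81 and 1.29 when libraries were left out.

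Neutrophil genes of other lists varied. Mpo, the myeloperoxidase of primary granules, had 1237, 1346 and 938 coding CPM in BM_P and 419, 629 and 395 in BM_T, without overlap (1.27 ± 0.29, adjusted p = 0.0161). The call was lost without BM_P replicate 1 or 2 or BM_T replicate 3 and in the fit of all 18 libraries. Mpo was the single gene called among 5 primary granule genes, against 0.736% of all genes called higher (median 0.88, and 0.54 to 1.53 when libraries were left out). Elane and Prtn3, proteases of the same granules, were at -0.35 and -0.74 (adjusted p = 0.83 and 0.497). Ncf1, a cytosolic subunit of the phagocyte NADPH oxidase, had 533, 626 and 622 coding CPM in BM_P and 328, 131 and 172 in BM_T (1.53 ± 0.35, adjusted p = 0.0154). The other 5 of the 6 subunits were not called, beside 0.736% of all genes called higher. Hdc, which makes histamine in basophils and mast cells, stood at 359, 135 and 131 coding CPM in BM_P and at 0, 39.3 and 17.2 in BM_T, on 4 counts in all (3.31 ± 0.78, adjusted p = 0.0181).

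**Figure D3:**
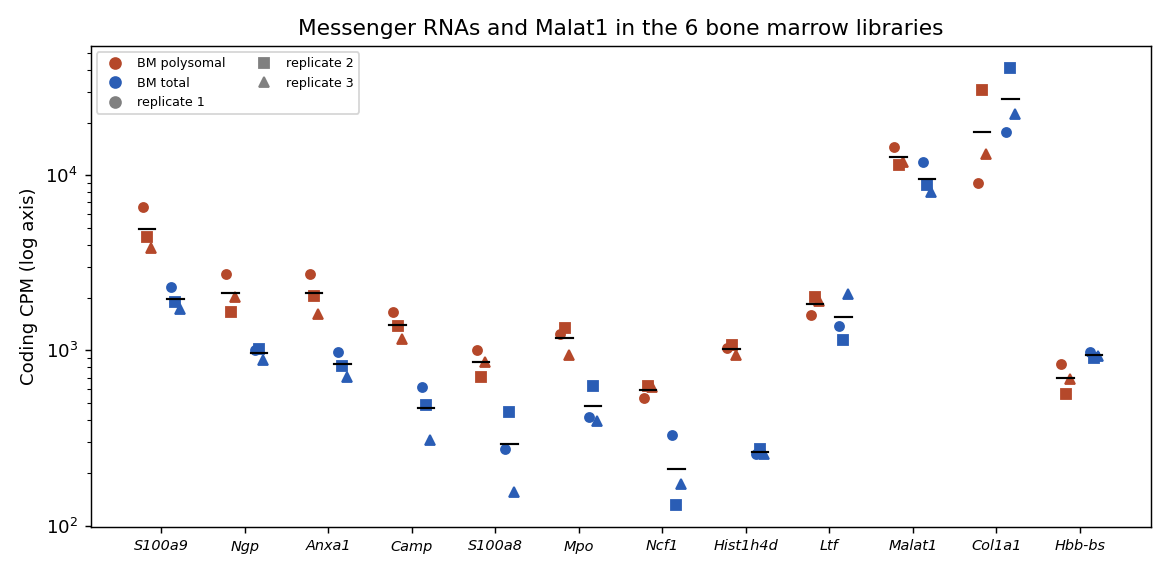
Coding CPM on a log axis for 12 transcripts in each bone marrow library, BM polysomal left of BM total, with symbols for replicates and bars for group means. The first 8 genes are called higher in BM polysomal RNA without overlap, and Ltf, Malat1 and Col1a1 overlap.

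The remaining rises were of mixed function, and most rested on few counts in BM_T. Of the 29, 15 had under 10 counts summed over the 3 total libraries, against 438 of all 3938 genes tested (11.1%). Hist1h4d, a replication-dependent histone H4 gene, was the best measured, at 1033, 1080.3 and 947 coding CPM in BM_P and 255, 275 and 258 in BM_T (1.95 ± 0.29, adjusted p = 0.000238). Of 30 histone genes tested it was the single one called (against 0.736% of all genes called higher), with a median of 0.66 and 27 above 0. It was not called in the fit of all 18 libraries (adjusted p = 0.120), and near-identical histone copies may share reads. Asxl1, a chromatin regulator mutated in myeloid disease, had 199, 196 and 263 coding CPM in BM_P and 54.6, 39.3 and 68.7 in BM_T, on 3 or 4 counts a total library (2.04 ± 0.51, adjusted p = 0.0306). Sf3a3, a subunit of the splicing factor SF3a, had 408, 215 and 174 in BM_P and 36.4, 39.3 and 34.4 in BM_T, on 2 or 3 counts a total library (2.84 ± 0.58, adjusted p = 0.00643). Rps24 was the single ribosomal protein gene called of 56 (median 0.14), against 0.736% of all genes called higher. It had 371, 444 and 241 coding CPM in BM_P and 182, 91.7 and 34.4 in BM_T (1.79 ± 0.48, adjusted p = 0.0446), a call lost without BM_P replicate 1 or 2 or BM_T replicate 2 or 3. Mcemp1 and Cpne3 rose by 2.39 and 2.85 on the log2 scale, on 7 and 4 counts over the BM_T libraries.

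For genes with 1 to 3 counts in BM_T the ratio of pooled counts, BM_P over BM_T per coding count, carries a wide interval. It was 14.5 (3.96 to 120.4, 95% exact interval) for Ints11, the endonuclease of the Integrator complex. Crip1, Cyth4 and Chst15 had ratios of 11.0 (3.73 to 53.9), 10.5 (3.53 to 51.1) and 9.65 (3.26 to 47.2). Ddhd1, a phospholipase, had 98.6, 142 and 178 coding CPM in BM_P and no count in BM_T, and was at least 8.51-fold higher with the floor taken as 3 counts over the group. Lyl1, a transcription factor of blood progenitors, had no count in BM_T either and was at least 6.12-fold higher. The same held for Vps28, at least 5.67-fold higher, and for Arfrp1, at least 5.43-fold higher. Without a count in BM_T, these 4 genes passed the count filter through BM_P alone, the group where they were high. Their rises are therefore descriptions.

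Coding genes that fell were led by Knl1 and Tnfrsf14. Knl1, a scaffold of the kinetochore, had 159, 207 and 172 coding CPM in BM_P and 3331, 8685 and 5032 in BM_T (-4.99 ± 0.39, adjusted p = 2.08e-07). Tnfrsf14, a receptor of the TNF family also called HVEM, had 201, 226 and 325 in BM_P and 3349, 9038 and 5359 in BM_T (-4.56 ± 0.40, adjusted p = 4.37e-07). Total replicate 2 was highest and replicate 1 lowest in both, and the groups lay far apart. Optn, an autophagy receptor, had 227, 331 and 299 coding CPM in BM_P and 1838, 5724 and 4826 in BM_T (-3.86 ± 0.39, adjusted p = 2.19e-06). Crem, a transcription factor of the cyclic AMP response, fell by 4.50 on 0 to 9 counts a BM_P library and 4 to 23 a BM_T library. Among proliferation genes, Mki67, the Ki-67 antigen, had 1075, 1139 and 1477 coding CPM in BM_P and 2129, 4074 and 3572 in BM_T (-1.41 ± 0.30, adjusted p = 0.0104), a fall that turned to 0.075 when scaled to all counts outside ribosomal RNA. Smc4, a condensin subunit, had 115, 102 and 86.9 in BM_P and 364, 327 and 532 in BM_T (-1.99 ± 0.37, adjusted p = 0.00246). Both belong to a cell cycle list of 26 tested genes, of which 2 fell (against 2.62% of all genes) and none rose. The median of that list was 0.58. Spi1, which encodes the myeloid transcription factor PU.1, and Odc1, which starts polyamine synthesis, had log2 differences of -2.23 and -2.42 (adjusted p = 0.00169 and 7.73e-05).

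Many of the coding genes that fell stood far higher in BM_T than in the sorted cells. Knl1 averaged 5683 ± 2736 coding CPM in BM_T, against 36.0, 43.7, 39.6 and 38.7 in polysomal LY6C, total LY6C, polysomal LY6G and total LY6G cells. Of the 55 genes, 26 had a BM_T mean of at least 10 times the highest mean of the sorted groups, against 187 of the 3772 other coding genes (4.96%). The 55 were called for high BM_T values, so this count is a description and supports nothing. By the BM_P mean it was 4 of the 55 (7.27%) and 173 of the 3772 (4.59%). BM_T replicate 2 was the highest total library in 34 of the 55, against 1193 of the 3772 (31.6%). It was also highest in 36 of the 48 noncoding and mitochondrial genes that fell, against 32.5% of all genes tested. These counts use the BM_T values behind the calls and are descriptions too. A small RNA gene lay inside or touched 10 of the 55 (18.2%) and 649 of the 3772 (17.2%), and Smc4 and Odc1 are among the 10, as Ddhd1 and Sf3a3 are among 3 such genes of the 29 that rose. Whether counts in these genes come from spliced mRNA was not tested.

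**Figure D4:**
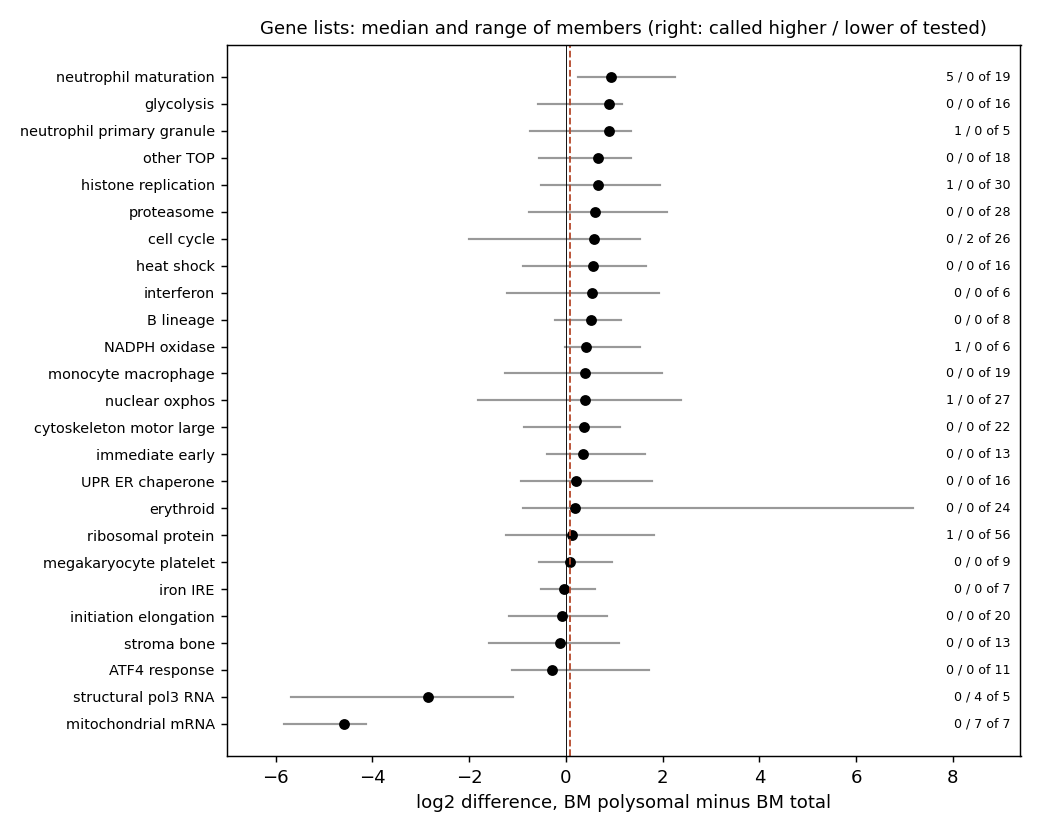
Median (point) and range (line) of the log2 difference, BM polysomal minus BM total, for each gene list with 5 or more tested members, with the numbers called higher, called lower and tested at the right. The dashed line is the median of all genes tested, 0.08, and the high end of the erythroid list is Epb42, which had no count in BM_T.

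Among genes of translation, ribosomal protein genes and initiation and elongation factors had medians near the average of coding RNA. The 56 ribosomal protein genes had a median of 0.14. Without overlap, 6 of them lay above and 6 below, against 12.9% and 9.98% of all genes tested. That median was 0.45 without BM_T replicate 1, with 5 called higher and 1 lower, -0.03 without BM_T replicate 3 and -0.02 without BM_P replicate 1, so its sign changed with single libraries. The 20 initiation and elongation factors had a median of -0.09 with none called. Other mRNAs that carry a terminal oligopyrimidine tract, the element through which growth signals set translation, had a higher median of 0.67 in 18 genes. Of these, 14 were above 0 and none was called, and the median was 0.46 to 0.85 when libraries were left out. Eef1a1, the elongation factor that brings tRNA to the ribosome, had 10564, 5234 and 4564 coding CPM in BM_P and 4623, 1899 and 1546 in BM_T (1.34 ± 0.41, adjusted p = 0.0946). BM_P replicate 1 and BM_T replicate 1 were the highest of their groups, as they were for the heat shock list, which summed to 14304, 6689 and 6688 in BM_P and 8154, 4375 and 3985 in BM_T. Rpl41 and Gapdh overlapped between groups, at -0.41 and 1.15 (adjusted p = 0.735 and 0.217). Actb had 5836, 3703 and 3826 coding CPM in BM_P and 3403, 2607 and 2473 in BM_T, and did not pass the threshold (0.66 ± 0.30, adjusted p = 0.278).

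Of 2 mRNAs followed for known control of their translation, Atf4 and Fth1, neither was called. Atf4, whose upstream reading frames hold back its translation in unstressed cells, had 83.6, 72.8 and 122.6 coding CPM in BM_P and 164, 209.6 and 51.5 in BM_T (-0.62 ± 0.54, adjusted p = 0.619). The 11 genes of its response had a median of -0.29 with none called. Fth1, the ferritin heavy chain with an iron-responsive element, was at -0.23 ± 0.35 (adjusted p = 0.797). Glycolysis genes had a median of 0.89 in 16 tested and proteasome genes 0.60 in 28, with none called in either. Without BM_P replicate 1 these medians were 0.48 and 0.22, and without BM_T replicate 3 that of the proteasome was 0.37. Red cell genes had a median of 0.18 in 24, and Hbb-bs, an adult beta globin, stood at 831, 564 and 689 coding CPM in BM_P and at 983, 904 and 927 in BM_T (-0.43 ± 0.27, adjusted p = 0.463). Col1a1, the chain of type I collagen that marks bone and stroma, had 9033, 30479 and 13242 in BM_P and 17636, 41079 and 22517 in BM_T. Replicate 2 was highest in each group (-0.62 ± 0.46, adjusted p = 0.548). No gene was called in the lists of monocytes and macrophages (19 tested, median 0.40), the B lineage (8, 0.51), megakaryocytes (9, 0.09), stem cells (2, -0.02) or stroma and bone (13, -0.12), while Hdc was the single gene called of 4 in the list of eosinophils, basophils and mast cells (against 0.736% of all genes called higher). No gene was called either for endoplasmic reticulum chaperones (16, 0.21), immediate early genes (13, 0.35), interferon-stimulated genes (6, 0.54), iron handling (7, -0.04) and large cytoskeletal and motor genes (22, 0.38), as well as heat shock genes (16, 0.56) and nuclear noncoding RNAs (4, 0.55).

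The median difference varied little with coding length, while the called rises lay mostly in short genes. Over 4 bins of about equal size, from the shortest to the longest of 3827 coding genes, the medians were 0.08, 0.10, 0.10 and 0.10. The shortest bin, with 963 of these genes, held 18 of the 29 rises and 16 of the 55 falls. Median coding length was 834 bases for rises, 1569 for falls and 1671 for all coding genes that did not fall. Across these genes, which are not independent replicates, Spearman's rho with coding length was 0.004.

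The contrast of polysomal with total RNA differed between marrow and sorted cells for 69 of 3938 genes (1.75%), 28 higher and 41 (1.04%) lower in marrow (edgeR, difference of contrasts, all 18 libraries). mt-Nd5 differed by -4.60 in marrow and by -1.48 in LY6C and -1.40 in LY6G cells, a difference of contrasts of -3.16 ± 0.59 (adjusted p = 0.00829). The other 6 mitochondrial mRNAs tested were not called by it (adjusted p = 0.0606 to 0.383). Knl1 and Tnfrsf14 were lower in BM_P than BM_T, and in LY6C and LY6G cells Knl1 was at -0.26 and 0.03 and Tnfrsf14 at -0.73 and -0.27, with differences of -4.88 ± 1.07 and -4.06 ± 0.55 (adjusted p = 0.0244 and 0.00112). Ncf1 was higher by 1.53 in marrow and at -0.34 and -0.22 in LY6C and LY6G cells (1.80 ± 0.42, adjusted p = 0.0317). Rn7s2 was at -5.19 in marrow and at -5.18 and -2.74 in LY6C and LY6G cells, and the difference was not called (-1.23 ± 1.501, adjusted p = 0.78). S100a9, at 1.33 in marrow against 0.21 and 0.13 in the sorted cells, was not called either (1.15 ± 0.76, adjusted p = 0.506). Malat1 was at 0.40 in marrow and -1.18 and -1.63 in LY6C and LY6G cells (1.81 ± 0.55, adjusted p = 0.114).

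**Figure D5:**
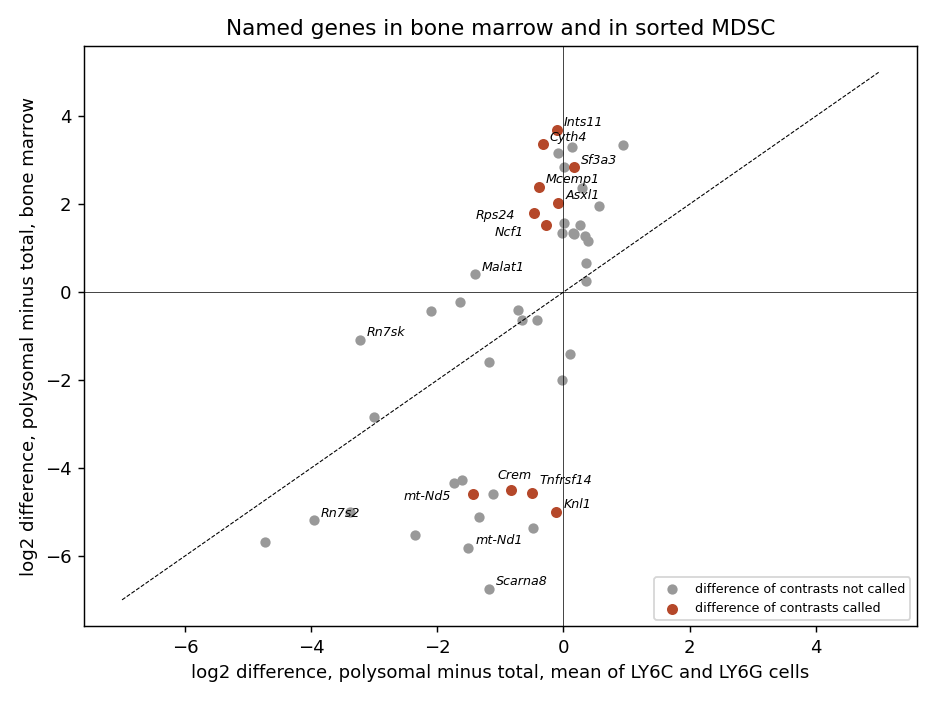
Log2 difference of polysomal minus total RNA in bone marrow (y axis) against the mean of LY6C and LY6G cells (x axis) for named genes, without Ddhd1, which had no count in BM_T. Coloured points are genes whose difference of contrasts was called, Knl1, Tnfrsf14, Crem and mt-Nd5 below the dashed line of equality and 7 genes above it.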

How the data were processed

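RNA was measured by stranded sequencing after ribosomal RNA depletion, per the labels' protocols. The authors deposited 1 table of raw counts per gene for 18 libraries. Per the submitters' processing notes, FastQC, STAR 2.5.2a, DESeq and DESeq2 were used with GRCm38, while the counting program, its annotation and strand setting are not given in the sources used here. GENCODE M21 supplied names, classes and sequences and matched 54809 of 54838 identifiers.

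The 6 bone marrow libraries were fitted with edgeR 4.0.16 in R 4.3.3 (robust quasi-likelihood F test, group means, no block), with the sum of nuclear protein-coding counts without Lars2 as library size. Ribosomal RNA and loci that resemble it were left out, and filterByExpr with a minimum count of 10 kept 3938 genes. The common dispersion was 0.100. P-values were adjusted by Benjamini-Hochberg over all genes tested and calls made under 0.05. Standard errors came from the F statistic. The difference of contrasts used all 18 libraries. The fit of the 6 bone marrow libraries, with and without a replicate block, was also run on simulated counts with the same dispersion for all genes. The difference of contrasts and the other fits were not simulated. Figures used matplotlib 3.10.9.

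Named genes were called, reached a mean of 100 coding CPM in the higher group, did not overlap between groups and carried a gene name. The 15 largest rises and 15 largest falls, up to 4 called members a list, and 16 genes followed whatever their values were taken. Genes outside this rule (the Gm identifiers, Snora31, Snora73b, Scarna2, Rnu12, mt-Nd6, Ngp, Optn, Spi1, Odc1, Lyl1, Vps28, Arfrp1, Elane, Prtn3, Epb42 and Mir6236) were chosen after their values were seen. Some items that met the rule are not reported here. The members and 32 lists were chosen with earlier results of these data known. Alternatives were other scalings, filters, DESeq2 1.42.0, limma 3.58.1 voom, thinning, leaving out each library and a replicate block.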

Additional observations from a re-analysis of the deposited data

Results flagged for a closer look

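The difference between polysomal and total RNA was itself different in marrow and in sorted MDSC for 69 genes, by the edgeR test of the difference of contrasts, marrow minus sorted cells, with all 18 libraries. Of the named genes, 4 were lower in marrow by this test. Knl1 differed by -4.88, Tnfrsf14 by -4.06, Crem by -3.77 and mt-Nd5 by -3.16 on the log2 scale. Those higher in marrow included Ints11 at 3.85, Cyth4 at 3.73, Mcemp1 at 2.80, Sf3a3 at 2.68, Rps24 at 2.27, Asxl1 at 2.13 and Ncf1 at 1.80. Of these, Ints11 and Cyth4 rested on 1 to 3 counts over the 3 BM_T libraries. Mcemp1 and Sf3a3 had 2 or 3 counts in each BM_T library, Asxl1 had 3 or 4 and Rps24 had 2 to 10. Ddhd1 was also called by this test. It had no count in BM_T and passed the count filter through BM_P alone, so its fitted value is no measured difference. With the floor of 3 counts, it was at least 8.51-fold higher in BM_P than in BM_T. The part of depth in these differences was not tested.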

How the results depend on the processing

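The 132 genes called, 29 higher and 103 lower, were 130 to 134 under TMM, TMMwsp and median-ratio factors and without the 50 most abundant genes, and 133 with at least 10 counts in 3 libraries. With all counts outside ribosomal RNA as library size, 2723 genes were called, 2665 higher and 58 lower, and the median of all genes moved by 1.51. Without annotated miRNA loci in that size, chosen after seeing the data, 173 were called, 80 of them higher, 93 lower, with the median moved by 0.21. No filter called 211 (51 higher, 160 lower) of 15896 genes, and moved the median by 0.40. The fit of all 18 libraries called 66 higher, and thinning 19. Leaving out each library gave 74 to 230 calls, 4 to 90 higher and 70 to 140 lower, lowest without BM_P replicate 1 and highest without BM_T replicate 1. All 132 calls kept their sign in every alternative that tested them, except outside ribosomal RNA, where 122 did. The 69 genes that differed from sorted cells were 141 with DESeq2 and 42 to 157 without 1 library.

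Replicate numbers were checked for pairing by correlating deviations from group means. Libraries of the same number gave 0.17, 0.07 and 0.09, so not every pair passed 0.1, although over all genes tested each library correlated best with its own number, a hint from the data and not the design. Over 896 genes with at least 10 counts in all 6 libraries they gave 0.31, 0.05 and 0.23, and BM_T replicate 2 correlated better with BM_P replicate 3 (0.08). With the replicate block, 219 genes were called (87 higher, 132 lower), and 247 for the difference from sorted cells.

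Of 962 values of named genes under alternatives, 817 kept direction and call, 130 lost the call, 12 gained one and 3 turned, all with library size outside ribosomal RNA (Mki67 0.075, Fth1 1.28, Hbb-bs 1.10). Against counts outside ribosomal RNA, the share of coding counts was 2.85-fold higher and that of mitochondrial mRNA 0.127-fold. Leaving out libraries gave 9.68-fold to 13.2-fold and 0.412-fold to 0.633-fold of all counts. With 3 counts needed, 161 more genes were detected in BM_P. The median of the longest bin of genes minus that of the shortest was 0.019, but -0.10 by exonic length, -0.044 with at least 10 counts in 3 libraries and -0.048 to 0.077 without 1 library. The cause of these changes was not tested. Few coding counts in BM_T limit all low genes.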

Other observations

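Olfactory and vomeronasal receptor genes, a list added after the data were seen, had counts in 6 of 1415 genes over the BM_P libraries and in 30 over the BM_T libraries, although BM_T had fewer coding counts. Their summed level was 5.02, 0 and 13.4 coding CPM in BM_P and 673, 170 and 0 in BM_T. None passed the count filter.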
